A study of Mus musculus with 3 samples.

Results

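Beta cells rich in the RNA of Cdkn1a, the gene of the cell cycle inhibitor p21, were taken from 3 single-cell libraries of mouse pancreatic islets. A barcode counted as a beta cell when it held at least 500 genes, at most 20% mitochondrial UMIs (unique molecular identifiers, each 1 captured RNA molecule) and at least 15% insulin UMIs (Ins1 plus Ins2). Each of Gcg, Sst and Ppy had to stay under 1% of its UMIs, and barcodes led by the pseudogene Ftl1-ps1 were left out. Members were chosen by their measured Cdkn1a UMIs: a beta cell was called Cdkn1a-high when it held at least 3 Cdkn1a UMIs that made up at least 0.03% of its UMIs. There were 389 such cells among 6468 beta cells and 24590 barcodes: 123 in the control library, 186 in the S961 library and 80 in the recovered library.

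All mice were male C57Bl6/J retired breeders, aged 7 to 8 months, and all had carried a pump. Control pumps held no S961. In the S961 group the pump delivered S961, a peptide that blocks the insulin receptor, at a labelled 20 nM per week for 2 weeks. Recovered mice had received S961 at the same labelled dose and pump time and then had their pumps removed. The length of recovery and the number of mice per library are not given in the sources used here. Islets of every group were cultured overnight, dissociated with TrypLE and sequenced by the droplet-based 10x Genomics 3' method. With 1 library per condition, no difference between conditions could be tested.

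p21 binds and blocks cyclin-dependent kinases, which holds cells in the first gap phase of the cell cycle. It is a classic target of the transcription factor p53, and stress pathways that act without p53 also raise it. Adult beta cells seldom divide, and in islets p21 is known as one of the markers followed in beta-cell ageing and senescence.

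Cdkn1a lies at chr17:29090976-29100727 on the plus strand (GENCODE M21, GRCm38/mm10). Its 3' ends gave 563 UMIs in the Cdkn1a-high cells of the control library, 1929 in those of S961 and 440 in those of recovered. The promoter windows below are those of Cdkn1a and of genes that moved with it, and are shown because members of the p53, ATF4 and hypoxia gene lists were higher in these cells. Each runs from 250 bases before to 50 bases after a RefSeq start site (GRCm38.p6), 5′ to 3′ on the gene's strand. In the first 3, capitals mark the p53 decamer (10 letters, palindromic, so it reads the same way on both strands). In Trib3 they mark the ATF4-type motif TGATGNAA, and in Ldha the hypoxia-type motif ACGTG, both searched on both strands. Neighbouring ACGTG matches on opposite strands overlap to form CACGTG.
Cdkn1a promoter, chr17:29090729-29091028, plus strand, p53 decamer: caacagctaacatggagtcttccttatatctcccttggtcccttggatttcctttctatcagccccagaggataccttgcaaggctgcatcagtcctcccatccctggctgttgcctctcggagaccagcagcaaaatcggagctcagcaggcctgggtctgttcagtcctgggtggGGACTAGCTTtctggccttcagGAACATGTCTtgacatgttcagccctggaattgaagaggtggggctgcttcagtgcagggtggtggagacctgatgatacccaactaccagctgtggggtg
Ccng1 promoter, chr11:40755237-40755536, minus strand, p53 decamer: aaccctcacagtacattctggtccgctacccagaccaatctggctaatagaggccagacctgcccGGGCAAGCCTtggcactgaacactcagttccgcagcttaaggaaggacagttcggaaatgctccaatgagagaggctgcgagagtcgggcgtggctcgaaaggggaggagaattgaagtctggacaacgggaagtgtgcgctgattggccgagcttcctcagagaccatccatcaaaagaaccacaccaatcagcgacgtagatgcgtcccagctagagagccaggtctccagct
Aen promoter, chr7:78895677-78895976, plus strand, p53 decamer: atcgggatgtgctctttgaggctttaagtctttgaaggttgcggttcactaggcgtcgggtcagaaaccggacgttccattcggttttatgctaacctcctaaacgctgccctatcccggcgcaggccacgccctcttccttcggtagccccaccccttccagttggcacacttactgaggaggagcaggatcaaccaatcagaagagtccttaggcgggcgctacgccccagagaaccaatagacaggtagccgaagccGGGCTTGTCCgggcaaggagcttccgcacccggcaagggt
Trib3 promoter, chr2:152344011-152344310, minus strand, TGATGNAA: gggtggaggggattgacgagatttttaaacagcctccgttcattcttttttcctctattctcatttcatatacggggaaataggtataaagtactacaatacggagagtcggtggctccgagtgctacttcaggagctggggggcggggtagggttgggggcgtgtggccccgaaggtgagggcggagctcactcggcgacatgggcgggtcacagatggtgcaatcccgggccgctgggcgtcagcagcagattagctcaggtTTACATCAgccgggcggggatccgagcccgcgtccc
Ldha promoter, chr7:46845554-46845853, plus strand, ACGTG: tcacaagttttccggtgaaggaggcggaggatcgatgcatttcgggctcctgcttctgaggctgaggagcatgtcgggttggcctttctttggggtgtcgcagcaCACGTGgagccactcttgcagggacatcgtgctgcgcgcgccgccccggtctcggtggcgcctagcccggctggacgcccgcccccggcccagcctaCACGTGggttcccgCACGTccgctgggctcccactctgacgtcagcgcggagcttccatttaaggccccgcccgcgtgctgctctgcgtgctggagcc

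The Cdkn1a window held 2 p53 decamers, of which GAACATGTCT starts 51 bases before the start site. The decamer occurred in 8.37% of 27025 mouse promoter windows of the same length. Among the p53-list genes that were higher in Cdkn1a-high cells, 8 had a window and 5 of these held it (Mdm2, Ccng1, Bax, Polk and Aen). Over all genes called higher, 16 of 170 windows held it (9.41%), near the share of all windows. ACGTG occurred in 19.7% of all windows and in 8 of 15 windows of the hypoxia-list genes that were higher. It was also in 61 of 170 windows (35.9%) of all genes called higher. Among the higher genes of the ATF4 list it was in 5 of 11 windows, and of the p53 list in 1 of 8. TGATGNAA occurred in 4.06% of all windows and in 3 of 11 windows of the ATF4-list genes that were higher (Trib3, Nupr1 and Herpud1). Over all genes called higher it was in 7 of 170 windows (4.12%). These matches describe letters in a window and do not show that a factor was bound.

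The share of beta cells that were Cdkn1a-high was 4.32% in control (123 of 2846, exact Clopper-Pearson 95% interval 3.6 to 5.13), 11.9% in S961 (186 of 1559, 10.4 to 13.6) and 3.88% in recovered (80 of 2063, 3.09 to 4.8). The S961 interval lay above those of both other libraries, and the control and recovered intervals overlapped. All intervals cover counting error only. Beta cells of the S961 library were also deeper, with a median of 13509 UMIs against 7622 in control and 10288 in recovered, and a deeper cell reaches 3 UMIs more readily. When cells were thinned to 5000 UMIs and 3 or more were still required, the shares were 3.06% in control, 8.25% in S961 and 2.22% in recovered. At 5 or more UMIs and at least 0.05%, they were 1.23%, 5.0% and 0.969%. The order of the S961 library above both others was the same under each of these settings.

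**Figure D1:**
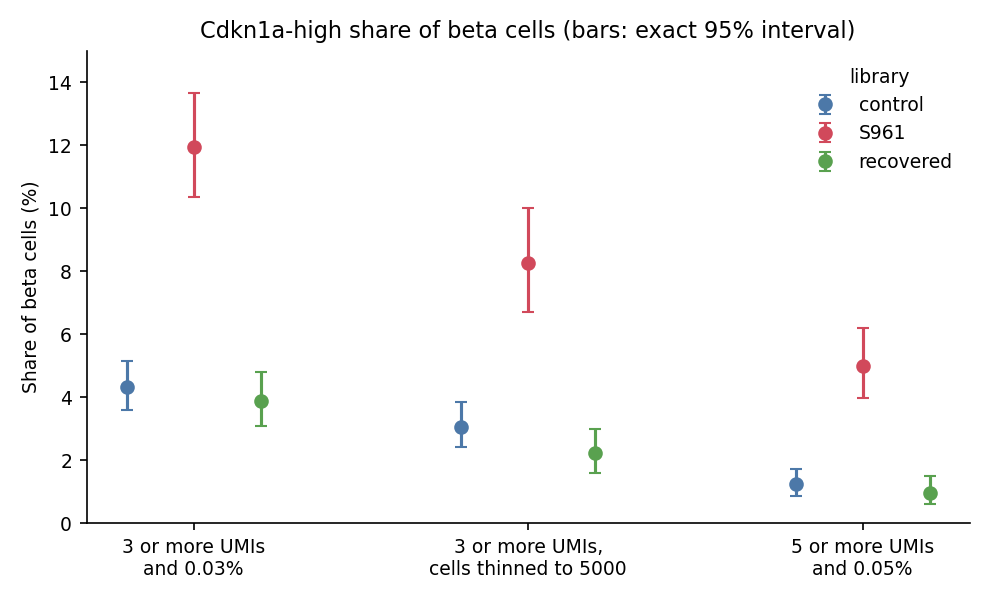
Share of beta cells (percent, y axis) that were Cdkn1a-high in each library under 3 definitions (x axis), with exact 95% intervals as bars. The S961 library lies above control and recovered under each definition, at 11.9%, 8.25% and 5.0%.

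Cdkn1a RNA was not a beta-cell feature alone. With the same Cdkn1a thresholds, 1.49% of 268 Gcg-rich control cells, 6.43% of 389 in S961 and 1.82% of 274 in recovered passed. Among Sst-rich cells 3.23%, 7.84% and 4.0% passed. Insulin-poor cells that were rich in neither Gcg nor Sst passed most often, at 22.2%, 36.4% and 12.4%. Their median depths were lower than those of beta cells in each library, at 2503, 6519 and 2007 UMIs.

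The rule sits on a gradient of Cdkn1a counts. A single Cdkn1a UMI or more was present in 30.7% of beta cells in the control library, 57.1% in S961 and 40.3% in recovered (22.6%, 40.6% and 26.2% after thinning). After thinning, the variance of the Cdkn1a count across beta cells was 1.92 times its mean in control, 2.35 times in S961 and 1.5 times in recovered. A Cdkn1a-high cell held a median of 4 Cdkn1a UMIs in control (maximum 12), 9 in S961 (maximum 33) and 5 in recovered (maximum 15). The median share of Cdkn1a in their UMIs was 0.0507%, 0.0499% and 0.0402%. The lowest share inside the rule was 0.0306%, 0.0301% and 0.030%, and the nearest beta cell with 3 or more UMIs outside it had 0.0299%, 0.0299% and 0.0297%. In S961, 234 beta cells had 3 or more UMIs but a lower share, against 42 in control and 103 in recovered. No cell barcode was shared between libraries among Cdkn1a-high cells, against 9 shared pairs among all beta cells and 51 among all barcodes.

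Each Cdkn1a-high cell was paired, within its library, with a beta cell of nearly equal depth that held 0 Cdkn1a UMIs, and all 389 found a partner. The pairs had median depths of 8472 and 8471 UMIs in control, 16741.5 and 16839 in S961, and 10784.5 and 10789 in recovered. Insulin genes made up a median 27.7% of UMIs in Cdkn1a-high cells and 32.3% in their partners in control, 30.3% and 35.4% in S961, and 29.9% and 31.9% in recovered. Mitochondrial UMIs made up a median 6.09% and 6.66%, 5.08% and 4.73%, and 6.22% and 8.02%. The Cdkn1a-high cells held more genes in each library, with medians of 2412 against 2370, 3883 against 3576 and 2925.5 against 2788.

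Beta-cell markers that the rule did not use were present, some in fewer Cdkn1a-high cells than partners. Iapp, the islet amyloid peptide, was found in 100% of Cdkn1a-high cells and of their partners in each library. Nkx6-1, a beta-cell transcription factor, had a UMI in 67.5% of Cdkn1a-high cells in control, 87.6% in S961 and 85.0% in recovered, against 74.0%, 77.4% and 82.5% of partners. Mafa, which drives insulin gene transcription in mature beta cells, had a UMI in 73.2%, 60.8% and 80.0%, against 74.8%, 59.1% and 82.5%. Ucn3 had a UMI in 31.7%, 50% and 55% of Cdkn1a-high cells against 55.3%, 61.8% and 67.5% of partners, and Slc2a2 in 32.5%, 38.2% and 40% against 46.3%, 40.3% and 58.8%. Trpm5, a cation channel of beta cells, had one in 42.3%, 25.8% and 33.8% against 51.2%, 29% and 57.5%.

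Markers of other cell types were present at levels that varied by list. The 9 T and NK markers summed to 0, 1 and 0 UMIs in Cdkn1a-high cells, with Cd3e and Trac at 0 in each library. The 10 macrophage markers summed to 29.1, 57.5 and 74.0 CPM (UMIs per 1000000) in Cdkn1a-high cells of control, S961 and recovered, against 42.3, 75.9 and 72.0 CPM in partners, with Lyz2 at 0 in Cdkn1a-high cells. The 13 acinar markers summed to 61.0, 283 and 230 CPM against 45.1, 362 and 184 CPM. The 7 ductal markers summed to 1047, 878 and 791 CPM against 1506, 978 and 505 CPM, with Cftr at 0 in Cdkn1a-high cells. The 10 alpha markers summed to 1045, 1632 and 1261 CPM against 1163, 2257 and 1343 CPM, and the 6 delta markers to 94.8, 80.2 and 294 CPM against 190, 84.7 and 74.1 CPM. The delta sum was thus above the partners in recovered and below them in control and S961. The part of this RNA in the class difference was not tested list by list.

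Endothelial and stromal markers did differ between the classes. The 9 endothelial markers summed to 46.9, 75.5 and 53.5 CPM in the Cdkn1a-high cells of control, S961 and recovered, against 0, 9.08 and 5.14 CPM in the partners. All 9 were detected in the Cdkn1a-high cells of each library, and all 9 were at 0 in the control partners. The 11 stellate and fibroblast markers summed to 38.5, 72.5 and 4.11 CPM against 0.939, 3.63 and 1.03 CPM. Of them, 4, 8 and 3 were detected in Cdkn1a-high cells and 1, 3 and 1 in partners. In the Cdkn1a-high cells of control, Sparc, Pdgfrb, Rgs5 and Mgp were detected, while Col1a1, Col1a2, Col3a1 and Dcn were among those at 0. This RNA sat in few cells: 3 of 123, 13 of 186 and 1 of 80 Cdkn1a-high cells held 2 or more UMIs of these markers, against 0, 3 and 1 of the partners. Doublets were not called, and whether these cells were doublets was not tested.

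The class difference was tested with edgeR over the 3 libraries, each giving 1 sum of Cdkn1a-high cells and 1 sum of partners, with the library as a block. Cdkn1a itself defines the classes and was left out. The count filter lets a gene in when the sums of 1 class alone hold enough UMIs. Phlda3, Ier3, Fabp4 and Col4a1 entered in this way, through the Cdkn1a-high sums. Such genes are among the calls and list counts below. Of 7838 genes tested, 212 were higher in Cdkn1a-high cells (2.7% of those tested) and 212 were lower (2.7%) at an adjusted p under 0.05, 5.41% in all. Of the higher genes 201 were higher in each of the 3 libraries, and of the lower genes 194 were lower in each. Among all genes tested, 17.7% were higher in each library and 18.7% lower. List counts at an unadjusted p under 0.05 are also given below. The share of all genes at that cut is not given, so those counts have no background and show no excess. These directions are relative to the median gene (TMM scaling, which matches the bulk of genes). Without TMM, relative to all UMIs, the median gene was 0.20 higher (log2) in Cdkn1a-high cells, and the calls became 746 higher and 38 lower, so that 95.2% of calls were higher against 50%. DESeq2 called 33 higher and 37 lower among the 2381 genes to which it gave an adjusted p. Leaving out the control library left 80 higher and 36 lower, and leaving out S961 left 107 and 77. Without recovered they were 204 and 160.

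Among the genes with the largest rises were a p53 target, glycolytic and hypoxia-type genes, haem oxygenase and a pseudokinase of the stress response. Levels are given below as TMM-scaled CPM, Cdkn1a-high against partners, in the order control, S961, recovered. Fold changes are log2. Their standard error (SE) was derived from the fold change and the edgeR F statistic, which rests on a spread pooled over genes. It does not measure how far the 3 library ratios of a gene lie apart.

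**Figure D2:**
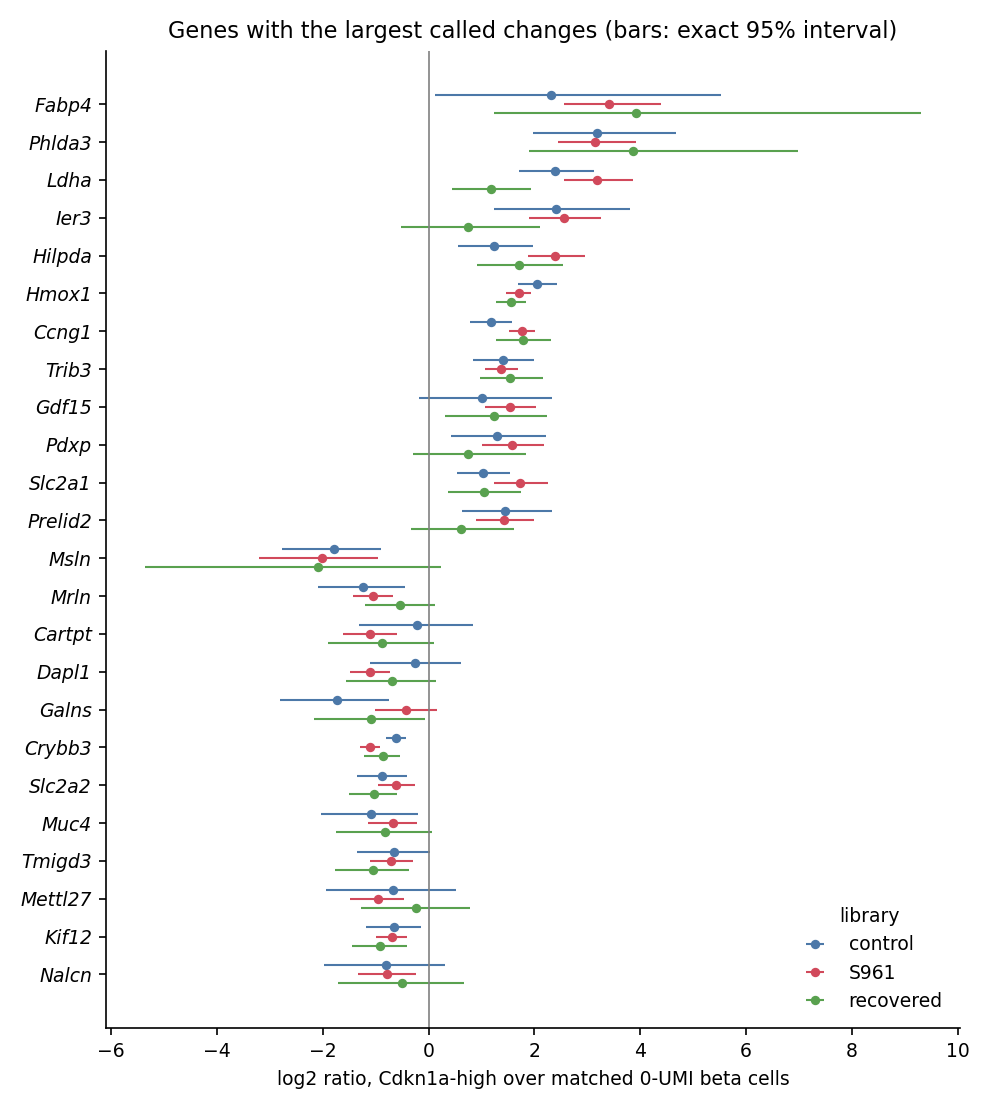
Log2 ratio of Cdkn1a-high cells over their depth-matched partners (x axis) in each library, with exact conditional binomial 95% intervals, for the 12 genes with the largest and the 12 with the lowest called fold change (y axis). Phlda3, Hmox1, Ccng1 and Trib3 lie above 0 with their whole interval in each library, and Crybb3, Slc2a2 and Kif12 lie below it.

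Part of the p53 network rose. Of 24 list members tested, 10 were higher and 0 lower by edgeR (at an unadjusted p under 0.05, 12 and 0; DESeq2, 4 and 0), and all 10 were higher in each library. The median log2 fold change of the list was 0.53, against -0.00 for all genes tested. The 10 were Phlda3, Ccng1, Gdf15, Aen, Polk, Trp53inp1, Zmat3, Bax, Sat1 and Mdm2. Without the 17 Cdkn1a-high cells that held endothelial or stromal RNA, 10 of 24 were again higher.

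Phlda3, a p53 target that blocks AKT at the membrane (chr1:135766119-135769136, plus strand), was at 53.5 against 5.9, 55.5 against 6.3 and 31.3 against 2.1 CPM. The classes did not overlap across libraries, and the log2 fold change was 3.21 (SE 0.23, edgeR adjusted p 1.2e-34). Phlda3 passed the count filter through the Cdkn1a-high sums alone. A Phlda3 UMI was found in 28.5%, 52.7% and 27.5% of Cdkn1a-high cells and in 2.44%, 8.06% and 2.5% of partners. Ccng1, cyclin G1 (chr11:40748552-40755311, minus strand), was at 165.9 against 73.6, 216.2 against 63.7 and 151.4 against 43.9 CPM. Each Cdkn1a-high value lay above each partner value, with a log2 fold change of 1.61 (SE 0.11, edgeR adjusted p 7.97e-35). Aen, a nuclease induced in apoptosis, was at 60.6 against 29.4, 48.6 against 17.5 and 47.5 against 22.5 CPM, a log2 fold change of 1.27 (SE 0.17, edgeR adjusted p 6.14e-11).

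Bax, which permeabilises mitochondria in apoptosis, was at 227.4 against 141.3, 255.9 against 136.5 and 198.9 against 102.7 CPM, and the classes did not overlap. Its log2 fold change was 0.85 (SE 0.10, edgeR adjusted p 1.55e-13). Gdf15, a secreted stress hormone under both p53 and ATF4 control, rose from 8.8 to 17.8, 16.8 to 48.9 and 14.97 to 35.3 CPM, a log2 fold change of 1.41 (SE 0.19, edgeR adjusted p 2.84e-10). Mdm2, the ubiquitin ligase that degrades p53, was at 58.9 against 50.04, 76.1 against 40.6 and 68.7 against 46.0 CPM, a log2 fold change of 0.68 (SE 0.13, edgeR adjusted p 4.81e-05). Zmat3, an RNA-binding p53 target, had a log2 fold change of 0.89 (SE 0.18, edgeR adjusted p 0.000138). Without S961, the calls of Gdf15 (1.14, edgeR adjusted p 0.0538) and Mdm2 (0.39, 0.406) were lost, and without control that of Zmat3 (0.81, 0.0608). Trp53, the p53 gene, was not called: its RNA was at 17.8 against 14.7, 12.3 against 14 and 22.2 against 12.8 CPM (0.15, SE 0.25, edgeR adjusted p 0.83). Sesn2, a p53 and ATF4 target, was not called either (0.32, SE 0.12, edgeR adjusted p 0.113), and passed in 5 of 19 alternatives, among them without recovered (0.44, 0.0347) and without TMM (0.52, 0.0102).

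Genes of glycolysis and the hypoxia response, many of them targets of HIF-1, were mostly higher. Of 20 tested, 17 were higher and 0 lower by edgeR (unadjusted, 19 and 0; DESeq2, 8 and 0), with a median log2 fold change of 0.48. Without the control library 9 were higher. Ldha, lactate dehydrogenase A, a gene that mature beta cells keep low (chr7:46841475-46855627, plus strand), was at 107.9 against 20.6, 72.9 against 8.0 and 55.5 against 24.6 CPM. The classes did not overlap, and the recovered pair was the closest. The log2 fold change was 2.44 (SE 0.17, edgeR adjusted p 7.87e-36). An Ldha UMI was found in 29.3%, 22.0% and 16.2% of Cdkn1a-high cells and in 9.76%, 6.45% and 15% of partners. In recovered these were 13 and 12 of 80 cells.

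Hilpda, a lipid-droplet protein induced by hypoxia, was at 58.0 against 24.5, 64.3 against 12.2 and 62.6 against 19.2 CPM, with a log2 fold change of 1.92 (SE 0.17, edgeR adjusted p 3.68e-23). Slc2a1, the glucose transporter GLUT1, was at 98.1 against 48.1, 48.9 against 14.7 and 61.6 against 29.9 CPM, with 1.31 (SE 0.15, edgeR adjusted p 6.95e-14). For both genes the classes were apart in each library, although the control partners' Slc2a1 level was close to the Cdkn1a-high level of S961. Pfkfb3, which drives glycolysis, was higher (1.19, SE 0.22, edgeR adjusted p 7.72e-06), a call lost without control (0.99, 0.0746). Vegfa, the vascular growth factor, was at 219.4 against 175.6, 184.7 against 131.9 and 232.2 against 159.4 CPM (0.45, SE 0.10, edgeR adjusted p 0.000387), a call lost without S961 (0.42, 0.0541).

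The ATF4 list, genes of the integrated stress response that is set off by amino acid shortage, haem lack or protein misfolding, had 12 of 30 tested members higher and 0 lower by edgeR (unadjusted, 18 and 0; DESeq2, 5 and 0). Its median log2 fold change was 0.33. Without the control library 6 were higher, and without TMM 22. Trib3, a pseudokinase and ATF4 target (chr2:152337422-152344032, minus strand), was at 93.6 against 35.3, 102.7 against 39.5 and 103.0 against 35.3 CPM. The values were nearly the same in the 3 libraries within each class, and the log2 fold change was 1.42 (SE 0.13, edgeR adjusted p 4.85e-22). Ddit3, the transcription factor CHOP, was at 320.2 against 204.1, 227.3 against 103.6 and 237.2 against 151.9 CPM, with 0.85 (SE 0.10, edgeR adjusted p 1.4e-13). Ppp1r15a, which restarts translation after stress, rose by 0.72 (SE 0.13, edgeR adjusted p 2.87e-06), a call lost without S961 (0.41, 0.335). Atf4 RNA itself rose by 0.33 (SE 0.10, edgeR adjusted p 0.0168), lost without control (0.35, 0.251) and without recovered (0.24, 0.315). Atf3, a partner of this pathway, had too few UMIs to be tested: 12 against 2, 36 against 6 and 7 against 4.

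The chaperones of the unfolded protein response did not follow the ATF4 genes. Of 25 tested, 0 were higher and 7 lower by edgeR (unadjusted, 0 and 11; DESeq2, 0 and 2), with a median of -0.16. Sdf2l1, a chaperone cofactor, was at 356.7 against 370.9, 183.6 against 295.0 and 167.6 against 281.3 CPM, a log2 fold change of -0.49 (SE 0.10, edgeR adjusted p 7.67e-05). Dnajc3, an inhibitor of the kinase PERK, had -0.41 (SE 0.10, edgeR adjusted p 0.000986). Without TMM, 1 of 25 was lower and the median was 0.02. Leaving out control, S961 or recovered left 1, 2 and 2 lower, Sdf2l1 being lost without S961 (-0.36, 0.087) and Dnajc3 without control (-0.51, 0.0518) or recovered (-0.36, 0.0562).

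**Figure D3:**
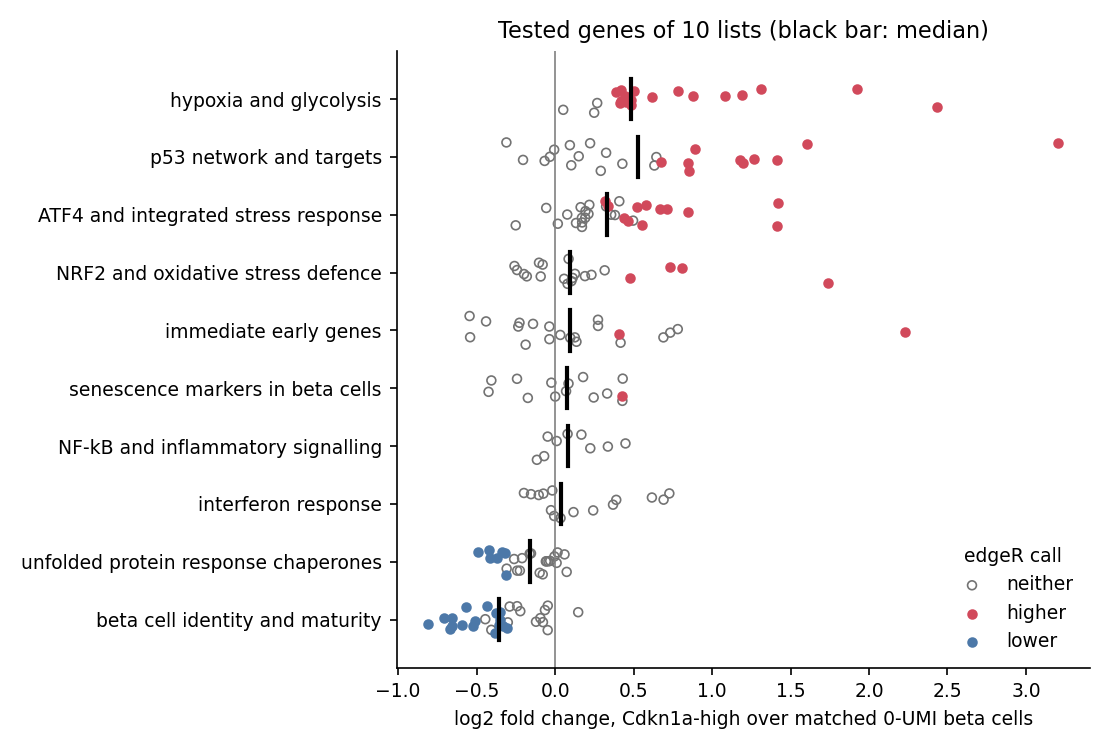
Log2 fold change (x axis) of each tested gene in 10 gene lists (y axis), filled red where edgeR called it higher in Cdkn1a-high cells and blue where lower, with the list median as a black bar. The hypoxia, p53 and ATF4 lists have medians of 0.48, 0.53 and 0.33, and the beta-cell identity list has -0.35.

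In the NRF2 list, 4 of 20 tested genes were higher and 0 lower by edgeR (unadjusted, 5 and 1; DESeq2, 2 and 0), and 8 were higher without TMM. Hmox1, haem oxygenase 1, which degrades haem (chr8:75093621-75100589, plus strand), was at 316.6 against 76.5, 214.5 against 65.8 and 436.1 against 148.7 CPM. The classes did not overlap, with a log2 fold change of 1.74 (SE 0.10, edgeR adjusted p 3.24e-46). An Hmox1 UMI was found in 59.3%, 58.1% and 63.7% of Cdkn1a-high cells and in 24.4%, 36.0% and 40.0% of partners. Srxn1, which repairs oxidised peroxiredoxins, had 0.81 (SE 0.12, edgeR adjusted p 3.22e-08), and Sqstm1, the autophagy adaptor p62, 0.48 (SE 0.10, edgeR adjusted p 0.000141). Nfe2l2, the NRF2 gene, had 0.73 (SE 0.17, edgeR adjusted p 0.000996), which was lost without control (0.77, 0.0608) and without S961 (0.45, 0.538).

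The metal-binding metallothioneins Mt1 and Mt2 both rose, and the granule zinc transporter Slc30a8 fell. Mt1 was at 2931 against 1553, 1096 against 479.4 and 1446 against 912.3 CPM (0.93, SE 0.10, edgeR adjusted p 4.89e-16), and Mt2 at 800.8 against 463.1, 223.3 against 90.3 and 433.1 against 257.7 CPM (0.95, SE 0.10, edgeR adjusted p 3.22e-17). Mt1 overlapped between the classes across libraries but not within any. Slc30a8 was at 178.4 against 281.6, 158.7 against 214.1 and 262.5 against 363.6 CPM (-0.51, SE 0.10, edgeR adjusted p 2.45e-05), a call lost without control (-0.45, 0.0653).

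Beta-cell identity and maturity genes were lower. By edgeR 0 of 30 tested were higher and 17 lower (unadjusted, 0 and 20; DESeq2, 0 and 13), all 17 in each library, and the median was -0.35. Relative to all UMIs, without TMM, 11 of 30 were lower and 0 higher. When partners were matched on the insulin share as well as depth, 17 of 30 were lower. The calls numbered 6 without control, 12 without S961 and 12 without recovered.

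Slc2a2, the glucose transporter GLUT2 of beta cells (chr3:28697903-28731359, plus strand), was at 56.2 against 103.0, 34.9 against 53.2 and 64.6 against 132.6 CPM. The Cdkn1a-high value was lower in each library, with a log2 fold change of -0.81 (SE 0.13, edgeR adjusted p 6.86e-08). Ucn3, urocortin 3, which beta cells release as they mature, was at 52.6 against 122.6, 58.0 against 88.2 and 99.9 against 139.0 CPM (-0.71, SE 0.12, edgeR adjusted p 2.78e-07). Mafa was at 247.0 against 383.6, 106.9 against 137.5 and 250.4 against 436.3 CPM (-0.59, SE 0.10, edgeR adjusted p 3.99e-07). Both Mafa classes were lower in S961 than in the other libraries. Pdx1, a master factor of the pancreas and beta cell, was at 91.0 against 132.5, 70.9 against 87.8 and 71.7 against 150.8 CPM (-0.57, SE 0.11, edgeR adjusted p 6.6e-05), a call lost without control (-0.59, 0.0858). Mlxipl, the glucose-responsive factor ChREBP, had -0.66 (SE 0.11, edgeR adjusted p 3.18e-07), and Ppp1r1a, a phosphatase inhibitor linked to insulin secretion, -0.67 (SE 0.11, edgeR adjusted p 3.74e-07). With partners matched on the insulin share, the call of Ppp1r1a was lost (-0.32, 0.109).

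Not all identity genes fell. Nkx6-1 was not called, at 165.0 against 198.2, 180.4 against 185.1 and 215.0 against 233.1 CPM (-0.12, SE 0.10, edgeR adjusted p 0.589), and without TMM its sign turned (0.06). Ins1 was at 67350 against 90190, 67090 against 107200 and 68940 against 81240 CPM (-0.44, SE 0.17, edgeR adjusted p 0.113), and Ins2 had -0.29 (SE 0.20, edgeR adjusted p 0.507). Ins1 was called lower in 13 of 19 alternatives, with log2 fold changes of -0.58 to -0.26 over all 19 and a DESeq2 adjusted p of 0.000138. Ins2 was called lower in 2 of 19, by DESeq2 (adjusted p 0.033) and with the mitochondrial share matched (-0.33, edgeR adjusted p 0.0322). The rule had used both insulin genes to choose beta cells.

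Beyond the lists, the most negative fold changes belonged to genes of varied kinds. Msln, the surface protein mesothelin, was at 12.5 against 43.2, 2.9 against 11.6 and 2.0 against 8.6 CPM (-1.89, SE 0.32, edgeR adjusted p 1.04e-06). It was found in few cells of either class, with a UMI in 3.25%, 1.61% and 2.5% of Cdkn1a-high cells and 4.07%, 3.23% and 6.25% of partners. Crybb3, a crystallin, was at 359.4 against 550.4, 101.8 against 219.4 and 117.1 against 213.9 CPM (-0.86, SE 0.10, edgeR adjusted p 4.01e-14), with both classes highest in control. Mrln, the calcium-pump regulator myoregulin, had -0.96 (SE 0.16, edgeR adjusted p 4.28e-07), Kif12, a kinesin, -0.74 (SE 0.13, edgeR adjusted p 1.13e-06) and Tmigd3 -0.77 (SE 0.16, edgeR adjusted p 0.000148). The peptide gene Cartpt (-0.90), Dapl1 (-0.89), Galns (-0.88), Muc4 (-0.79), Mettl27 (-0.77) and the sodium channel Nalcn (-0.73) were also called lower, each with a call that was lost when 1 library was left out. These were control for Galns, Muc4, Mettl27 and Nalcn (edgeR adjusted p 0.357, 0.123, 0.159 and 0.251), S961 for Cartpt, Dapl1, Muc4, Mettl27 and Nalcn (0.548, 0.551, 0.0642, 0.713 and 0.548), and recovered for Nalcn (0.0521).

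Among the remaining genes with the largest rises, Ier3, an early stress-response gene, was at 36.6 against 6.9, 45.2 against 7.7 and 16.1 against 9.6 CPM (2.23, SE 0.23, edgeR adjusted p 1.35e-17). Pdxp, a vitamin B6 phosphatase, had 1.35 (SE 0.21, edgeR adjusted p 7.9e-08), and Prelid2 1.28 (SE 0.20, edgeR adjusted p 3.95e-08). The largest fold change of all, 3.31 (SE 0.31, edgeR adjusted p 5.7e-21), was that of Fabp4, a fatty acid carrier of fat and capillary endothelial cells. It rested on the few cells with endothelial or stromal RNA. With them, Fabp4 had 11 against 2, 156 against 12 and 16 against 1 UMIs, and without them 1 against 2, 9 against 11 and 0 against 1. Phlda3 without those cells had 60 against 6, 177 against 16 and 31 against 2 UMIs, and Ldha 100 against 21, 200 against 23 and 55 against 23. Col4a1, a basement membrane collagen also called higher and named after its values were seen, had 16 against 4, 87 against 19 and 15 against 5 UMIs with those cells and 8 against 4, 30 against 18 and 9 against 5 without.

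Few other cell cycle inhibitors or RB pathway genes were called. In the list of cyclin-dependent kinase inhibitors and the RB pathway, 0 of 11 tested genes were higher and 1 lower by edgeR (unadjusted, 1 and 1; DESeq2, 0 and 0). Cdkn1b, p27, was at 51.7 against 27.5, 66.6 against 64.4 and 53.5 against 39.6 CPM (0.27, SE 0.14, edgeR adjusted p 0.284), and passed without TMM (0.51, 0.0207). Cdkn2b, p15, had 0.18 (SE 0.26, edgeR adjusted p 0.80) and Cdkn2c, p18, 0.26 (SE 0.24, edgeR adjusted p 0.663). Cdkn2a, the p16 and p19ARF gene and the other common senescence marker, had 0 against 2, 0 against 1 and 2 against 3 UMIs, too few to be tested, and a level below 3 UMIs cannot be told from 0 at this depth. Cdkn1c had 1 against 0, 9 against 1 and 2 against 1 UMIs. Ccnd1, cyclin D1, was called lower (-0.36, SE 0.11, edgeR adjusted p 0.0237), which was lost without any of control (-0.52, 0.0518), S961 (-0.09, 0.897) or recovered (-0.38, 0.0519). The cell division gene Mki67 had 1 against 0, 17 against 2 and 1 against 1 UMIs.

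Lists tied to senescence beyond p21 differed in their calls, against 2.7% of all genes tested in each direction. Of 14 tested senescence markers of beta cells, 1 was higher and 0 lower by edgeR (unadjusted, 1 and 2; DESeq2, 0 and 0). That one was Igf1r, the IGF-1 receptor, at 455.7 against 334.6, 329.7 against 212.7 and 367.5 against 333.7 CPM (0.43, SE 0.10, edgeR adjusted p 0.000695), a call lost without control (0.41, 0.185) and without S961 (0.29, 0.207). Bambi, a pseudoreceptor that blocks TGF-beta signals, had 0.09 (SE 0.14, edgeR adjusted p 0.828), the lysosomal galactosidase gene Glb1 -0.41 (SE 0.20, edgeR adjusted p 0.284) and the survival gene Bcl2l1 0.43 (SE 0.23, edgeR adjusted p 0.328). Of the secreted matrix and growth factors of senescence, 3 of 8 were higher (Col4a1, Gdf15 and Vegfa) and 0 lower by edgeR (unadjusted, 3 and 1; DESeq2, 0 and 0), with a median of -0.01. More of this list could be tested in some alternatives. In these, 5 of 12 were higher without control, 8 of 14 without recovered and 8 of 15 with all 0-UMI cells in the depth range. A gene can pass the count filter on the UMIs of 1 class alone, so the larger counts are no further evidence on the list. Without S961, 0 of 8 were higher. All these counts include the few cells that held endothelial or stromal RNA, and none is given here without them. In S961, Col4a1 had 87 against 19 UMIs with those cells and 30 against 18 without. The NF-kB list, which holds the inflammatory part of the senescence programme, had 0 of 9 genes called by edgeR. It had 0 at an unadjusted p under 0.05 and 0 by DESeq2, and 17 of its 26 genes had too few UMIs to be tested. The interferon list had 0 of 15 called (unadjusted, 5 higher and 0 lower, with no share of all genes at that cut to compare; DESeq2, 0).

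Further lists had 0 to 4 genes called in each direction by edgeR, against 2.7% of all genes tested in each. Of 21 immediate early genes, 2 were higher (Ier3 and Jund) and 0 lower by edgeR (unadjusted, 6 and 3; DESeq2, 0 and 0), and the call of Jund (0.40, edgeR adjusted p 0.00204) was lost without control (0.0665), S961 (0.0785) or recovered (0.0656). Jun (0.14, edgeR adjusted p 0.587) was not called but passed without TMM (0.36, 0.0478), and Fos (-0.19, 0.321) was not called. Of 22 cytoskeletal genes, 4 were higher, led by S100a6 (0.75, edgeR adjusted p 0.0103), and 2 were lower, led by Tmsb4x (-0.46, 0.000148), lost without control (-0.46, 0.0729). The calls of S100a6, Tpm4 and Cnn3 were lost without the cells that held endothelial or stromal RNA (edgeR adjusted p 0.145, 0.0579 and 0.0846), and each was also lost without control (0.198, 0.295 and 0.339) or recovered (0.368, 0.113 and 0.142), that of Cnn3 without S961 too (0.149). Krt8, a keratin of simple epithelia, was higher (0.36, edgeR adjusted p 0.0086), in control (344.2 against 204.1 CPM) and S961 (270.5 against 216.6) but not in recovered (226.1 against 227.8), and not without control (0.19, 0.614) or S961 (0.39, 0.0748). Its partner Krt18 was not called (0.15, 0.451), but passed without TMM (0.33, 0.0138). Of 17 genes of insulin and IGF signalling only Igf1r was called. Insr, the receptor that S961 blocks, was at 13.4 against 18.6, 22.3 against 23.8 and 19.2 against 27.8 CPM (-0.25, SE 0.21, edgeR adjusted p 0.595), and Irs2 had 0.17 (edgeR adjusted p 0.671). Nuclear respiratory chain genes had 0 of 29 higher and 2 lower by edgeR (unadjusted, 0 and 10; DESeq2, 0 and 0). Txnip (0.13, edgeR adjusted p 0.691) and Tuba1b (0.11, 0.813) were not called.

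Beta cells with 1 or 2 Cdkn1a UMIs, again of matched depth, filled the range between the classes for some genes and not for others. Values here are CPM of summed UMIs, for 0, 1 and 2 UMIs and then Cdkn1a-high. Trib3 stepped up at each count in each library: 33.8, 57.3, 72.6 and 98.6 in control, 34.2, 57.2, 67.9 and 107.5 in S961, and 34.0, 47.4, 77.8 and 104.9 in recovered. Phlda3 stayed low until the last step, at 5.6, 3.8, 14.7 and 56.3 in control, 5.4, 9.1, 13.4 and 58.1 in S961, and 2.1, 2.1, 9.3 and 31.9 in recovered. Slc2a2 stepped down at each count in control (98.6, 92.1, 75.6 and 59.1) and recovered (127.6, 112.4, 86.1 and 65.8), while in S961 cells with 1 UMI were highest (46.0, 60.7, 43.5 and 36.5). A cell with 1 or 2 UMIs may differ from a cell with 0 by sampling alone, so these classes mix.

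**Figure D4:**
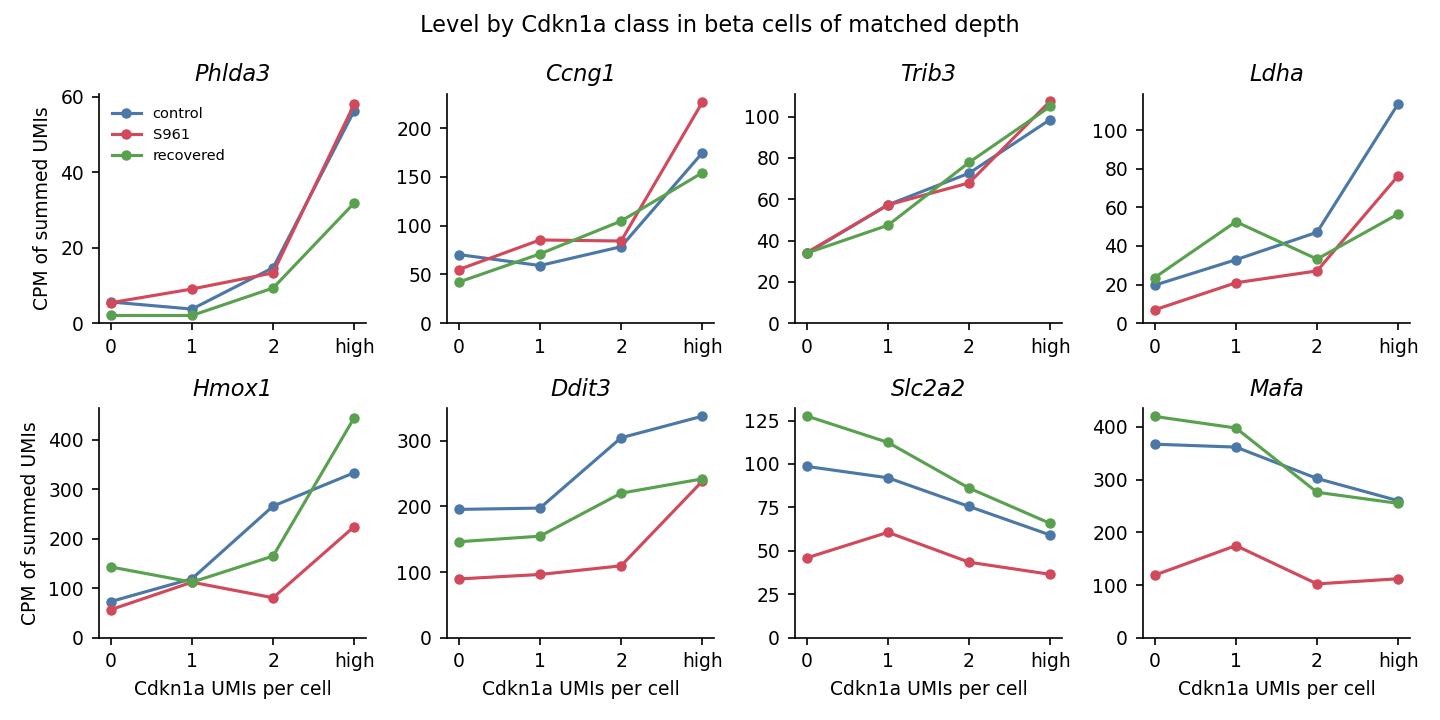
CPM of summed UMIs (y axis, each panel from 0) for 8 genes in beta cells of matched depth with 0, 1 or 2 Cdkn1a UMIs and in Cdkn1a-high cells (x axis), 1 line per library. Trib3 climbs at each step in the 3 libraries, from about 34 to 98.6, 107.5 and 104.9, whereas most of the Phlda3 rise falls on the last step.

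Single Cdkn1a-high cells varied in which of these genes they held. Phlda3, Ldha, Hmox1 and Trib3 were among the largest called rises in these same cells, so a gap between the classes was set beforehand. Of these 4, none was detected in 16.3% of Cdkn1a-high cells in control, 11.3% in S961 and 18.8% in recovered, against 54.5%, 41.9% and 42.5% of partners. All 4 were detected in 2.44%, 10.2% and 3.75%, and in 0 of 123, 0 of 186 and 0 of 80 partners. Cdkn1a-high cells of S961 were also the deepest, at a median of 16741.5 UMIs against 8472 in control and 10784.5 in recovered. These shares were not thinned and include the few cells with endothelial or stromal RNA. Phlda3 and Ldha were found together in 4.88%, 11.3% and 3.75% of Cdkn1a-high cells. The summed p53 list had a median of 1349 CPM per Cdkn1a-high cell against 923 in partners in control, 1708 against 870 in S961 and 1362 against 961.3 in recovered. For the hypoxia and glycolysis list the medians were 9796 against 5082, 7233 against 3529 and 6003 against 3829. Both lists overlapped between the classes, and the 90th percentile of control partners for the hypoxia list, 12958.5 CPM, lay above the Cdkn1a-high median. Across single Cdkn1a-high cells, the p53 and hypoxia lists did not rise together. Their correlation (rho) came to -0.27 (control), -0.34 (S961) and -0.06 (recovered). Whether the same cells carried both rises was not tested further.

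**Figure D5:**
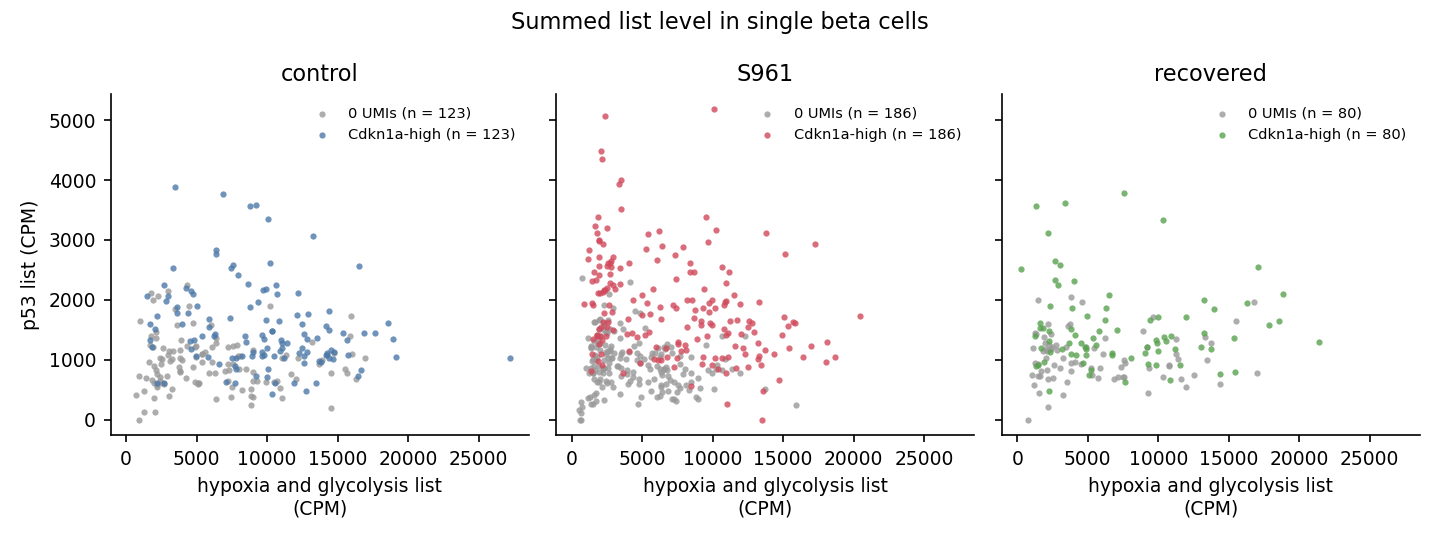
Summed level of the p53 list (y axis, CPM) against that of the hypoxia and glycolysis list (x axis, CPM) in single Cdkn1a-high cells (coloured) and their partners (grey), 1 panel per library (123, 186 and 80 cells of each class). The coloured points reach higher on the p53 axis than the grey ones in each library, with medians of 1349, 1708 and 1362 CPM against 923, 870 and 961.3.

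The remaining lists gave 0 to 4 calls each by edgeR. The heat shock list had 1 of 16 higher (Hspb1, 0.91, edgeR adjusted p 1.96e-06, lost without control at 0.57 and 0.24) and 2 lower (Hspa1a and Hspa1b). The dedifferentiation list had 2 of 10 higher (Ldha and the tetraspanin Cd81) and 2 lower (Pdyn, prodynorphin, and Serpina7), and without TMM 2 higher and 0 lower. The call of Cd81 (0.42) was lost without control (0.30, edgeR adjusted p 0.328) and without S961 (0.45, 0.0751), and that of Pdyn (-0.45) without control (-0.42, 0.0919). Serpina7 (-0.43) lost its call without control (-0.46, edgeR adjusted p 0.404), and its sign turned without S961 (0.29, 0.636). Apoptosis regulators had Bax alone called of 11, DNA repair genes Mgmt alone, higher, of 13, the autophagy list Sqstm1 alone of 19 and the TGF-beta list Id2 alone, lower, of 9 (-0.58, edgeR adjusted p 0.00753, lost without S961 at 0.379 and recovered at 0.0798). None of 3 cell division genes was called by edgeR (unadjusted, 1 higher and 0 lower; DESeq2, 0), and 21 of the 24 listed had too few UMIs to be tested.

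The 3 libraries went opposite ways for some genes. Hspa1a, an inducible heat shock chaperone nearly identical to Hspa1b so that their reads may be split, was at 35.7 against 20.6, 22.6 against 102.2 and 33.3 against 8.6 CPM, low in the Cdkn1a-high cells of S961 only. Its called fold change (-1.14, SE 0.17, edgeR adjusted p 1.17e-08) turned to 1.21 without S961 (0.00826), was lost without control (-1.55, 0.0604) and moved to 0.03 without cells high in heat shock RNA. Such cells made up 2 of 186 Cdkn1a-high cells and 8 of 186 partners in S961. Aldh1a3, a marker of beta cells that lose maturity, was at 26.8 against 19.6, 24.0 against 45.5 and 18.2 against 5.3 CPM (-0.42, SE 0.19, edgeR adjusted p 0.199). An Aldh1a3 UMI was found in 13.8%, 20.4% and 12.5% of Cdkn1a-high cells and in 6.5%, 21.5% and 5% of partners.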

How the data were processed

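Single-cell RNA of islets was measured in 3 libraries (control, S961, recovered), 1 per condition. The deposited values are counts: UMIs per gene and barcode, made by the authors with Cell Ranger against mm10, per the submitters' processing notes. Every value was whole, and 31053 genes and 24590 barcodes were held. Libraries held 38265969, 47651767 and 40102058 UMIs and were told apart by the barcode suffix in the labels. Doublets were not called, and no barcode held under 500 UMIs.

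Each Cdkn1a-high cell was paired with the unused 0-UMI beta cell nearest in depth, within 0.1 log2. UMIs were summed per library and class and tested with edgeR 4.0.16 (quasi-likelihood, TMM, filterByExpr, library block, Benjamini-Hochberg adjusted p under 0.05), in R 4.3.3. The 3 pairs are libraries of different conditions. The edgeR fit pooled the spread strongly over genes (prior degrees of freedom 510.7). A p-value therefore reflects mostly this pooled spread and hardly the gene's own spread over the 3 libraries. DESeq2 1.42.0 was an alternative. The edgeR step was tested on simulated data. Ratios within a library carry exact conditional binomial 95% intervals and shares exact Clopper-Pearson ones, for counting error only.

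Named genes were the 12 highest and 12 lowest called fold changes with 1 sign in all libraries and at least 20 CPM. Added to these were 44 key genes and up to 4 members of each of 23 lists. The list members had at least 20 CPM in the higher class, and called ones were taken first. Mitochondrial, ribosomal protein, unnamed and other cell types' marker genes were left out of the first set. The members, lists and key genes were chosen with earlier results of these data known. Coordinates are from GENCODE M21, and promoter windows from RefSeq (GRCm38.p6, first entry per symbol, 27025 symbols). Alternatives covered the matching, thinning, thresholds, filters, scaling, tool, block and each library in turn.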

Additional observations from a re-analysis of the deposited data

Results flagged for a closer look

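For 6 genes the class difference ran opposite ways in different libraries, with counting intervals on either side of 0. Whether the difference changed between conditions was not tested, since each condition has 1 library. Values are log2 ratios of Cdkn1a-high cells over their partners. Hspa1a, a heat shock chaperone, had -2.18 in S961 and 1.96 in recovered. Aldh1a3 had -0.92 in S961 and 1.76 in recovered. Gpx3, a secreted glutathione peroxidase, had -0.33 in S961 and 1.45 in recovered. Serpina7, the thyroxine-binding globulin, had -0.76 in S961 and 1.03 in recovered. Spp1, osteopontin, had -0.81 in control, -0.52 in S961 and 0.94 in recovered. B2m, the light chain of class I antigen presentation, had 0.80 in control, 0.76 in S961 and -0.73 in recovered.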

How the results depend on the processing

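Against 212 higher and 212 lower genes, the counts were 396 and 346 with all 0-UMI beta cells in the depth range, 135 and 94 against cells with 1 Cdkn1a UMI, 66 and 39 after thinning to 5000 UMIs, and 90 and 57 for cells at 5 or more UMIs and 0.05%. DESeq2 gave 33 and 37, and 25 and 13 without its filter on mean counts. Without TMM they were 746 and 38. The library is the replicate block, since both classes come from it, and with no replicate block 34 were higher and 1 lower. Leaving out each library gave 80 to 204 higher and 36 to 160 lower genes. The share of Cdkn1a-high cells was 3.06%, 8.25% and 2.22% (control, S961, recovered) after thinning and 1.23%, 5.0% and 0.969% at the stricter rule, and 3.38%, 10.7% and 3.57% at an insulin share of at least 25%, where recovered lay above control instead of below it, within their intervals.

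Of 64 named genes called, Bax, Ccng1, Hmox1 and Trib3 were called under each of the 19 alternatives. Hilpda, Phlda3, Ldha, Ier3 and Fabp4 were called under each that gave them an adjusted p (18, 18, 17, 16 and 13). For Fabp4 this leaves out the alternative without the cells that held endothelial or stromal RNA. There Fabp4 had 1 against 2, 9 against 11 and 0 against 1 UMIs, too few to be tested, and its rise was gone. Signs turned (log2) against cells with 1 UMI for Mettl27 (0.016), Cdkn2c (-0.034), Aldh1a3 (0.28), Insr (0.15) and Tuba1b (-0.025). They turned without cells holding 0.3% of another type's markers for Cdkn2b (-0.21), Jun (-0.020), Bambi (-0.063) and Spp1 (0.10). At the stricter rule they turned for Jun (-0.28), Bambi (-0.089) and Gpx3 (-0.13), and after thinning for Fos (0.0067) and Bambi (-0.14). Without TMM they turned for Fos (0.00047) and Nkx6-1 (0.061), and with all 0-UMI cells for Txnip (-0.039) and Tuba1b (-0.035). Tuba1b also turned with matched insulin share (-0.072), Hspa1a without heat-shock-rich cells (0.035), and DESeq2 without its filter turned Hspa1a (0.23) and Aldh1a3 (0.19). Leaving out each library in turn gave both signs for Trp53 (-0.054 to 0.52), Jun (-0.033 to 0.28), Hspa1a (-1.59 to 1.21), Aldh1a3 (-0.64 to 0.82), Bambi (-0.047 to 0.37), Irs2 (-0.065 to 0.50), Txnip (-0.13 to 0.23), Tuba1b (-0.12 to 0.24), Gpx3 (-0.28 to 1.34), Spp1 (-0.67 to 0.057) and Serpina7 (-0.65 to 0.29). The cause was not tested. Genes under the count filter, such as Cdkn2a, cannot be compared at this depth.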
